A study of Mus musculus with 16 samples.

Results

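Notch receptors and the genes that tune them were followed in kidneys with a tubular deletion of Hes1, a transcriptional repressor that Notch signaling switches on. The set holds 10 of the 28971 genes in the table used, chosen by gene symbol: the receptor genes Notch1, Notch2, Notch3 and Notch4, the fringe genes Lfng, Mfng and Rfng, and the nuclear and feedback genes Rbpj, Maml1 and Nrarp. All 10 were found and all 10 passed the filter on low counts. Whole-kidney total RNA was compared between 3 libraries of mice with Pax8-rtTA, TRE-Cre and floxed alleles of Hes1 (Hes1 cKO, for conditional knockout) and 4 libraries of wild type littermates (control). Every mouse, controls included, had received 1 mg/mL doxycycline with 5% sucrose in its drinking water for 1 week from the age of 3 weeks. The Pax8 promoter drives rtTA, which switches on Cre under doxycycline, in tubule epithelium, so Hes1 in vessels, stroma and immune cells of the same kidney is not a target of the deletion. Whether controls carried rtTA or Cre is not stated in the labels. The series asked which genes differ between such kidneys, and its title names Notch signaling and the cell types of the collecting duct.

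A Notch receptor is a membrane protein that is cut when a Delta-like or Jagged ligand on a neighbouring cell binds it. The freed intracellular part enters the nucleus, joins the DNA-binding protein Rbpj and a Mastermind-like co-activator such as Maml1, and switches on targets such as Hes1. Fringe enzymes add a sugar to the receptor's extracellular part and so alter its response to the ligands, and Nrarp is a Notch target whose protein limits the signal. In the collecting duct, Notch signaling is known to favour principal cells over intercalated cells.

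The libraries held 16973931 to 20420422 counts, of which the 10 genes together took 0.0266% to 0.0360%. The deleted gene, Hes1 (ENSMUSG00000022528), was at 19.8, 17.2 and 17.5 CPM (counts scaled to library size) across Hes1 cKO 1 to 3 and at 42.8, 51.0, 67.6 and 60.9 CPM across control 1 to 4, listed in that order throughout, where the numbers only name columns. The groups did not overlap, and Hes1 fell by 1.61 on the log2 scale (edgeR adjusted p 0.00357). Tubule markers were high, as shown by 2911 ± 299 CPM (SD, n = 4) of Umod, a thick ascending limb gene, in control. Of 10 intercalated cell markers 9 were called higher in Hes1 cKO, and of 7 tested principal cell markers 1, Hsd11b2, was called lower. All 7 principal cell markers had a log2 fold change below 0 (median -0.53, beside -0.0064 over all tested genes). Of these 7, 5 were lower at an unadjusted p under 0.05 in edgeR, as were 2.61% of all tested genes. The summed level of 7 adrenal cortex genes ranged from 2.67 to 819 CPM and was highest in Hes1 cKO 3 (819 CPM), control 1 (646 CPM) and control 2 (162 CPM). Xist was above 333 CPM in Hes1 cKO 3, control 3 and control 4, and at most 0.371 CPM in the other 4 libraries, to which no sex was assigned. The labels number the mutant and wild type samples but do not tie a library to an animal, so p-values measure only the spread between these libraries.

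The promoters of 3 of the genes are shown because Hes1 binds E boxes and N boxes and Rbpj binds a TGGGAA core, and these genes are the receptor with the largest difference and the 2 whose windows hold an E box. Each window is the RefSeq sequence in GRCm38.p6 from 250 bases before to 50 after a gene's start, printed 5′ to 3′ on the gene's own strand. Capitals mark every match, on either strand, to an E box (CACGTG), a related Hes site (CACGCG), an N box (CACNAG) or the Rbpj core (TGGGAA, or GTGGGAA with the base before it). The Notch1 window surrounds the RefSeq start, which lies inside the longer GENCODE span of the gene.
Notch1 (chr2:26503773-26504072, minus strand): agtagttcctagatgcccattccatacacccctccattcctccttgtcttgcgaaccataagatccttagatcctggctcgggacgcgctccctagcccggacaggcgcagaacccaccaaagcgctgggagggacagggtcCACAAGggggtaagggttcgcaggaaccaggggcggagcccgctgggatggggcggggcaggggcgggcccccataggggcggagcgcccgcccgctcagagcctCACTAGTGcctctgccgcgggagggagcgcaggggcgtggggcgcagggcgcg
Lfng (chr5:140607091-140607390, plus strand): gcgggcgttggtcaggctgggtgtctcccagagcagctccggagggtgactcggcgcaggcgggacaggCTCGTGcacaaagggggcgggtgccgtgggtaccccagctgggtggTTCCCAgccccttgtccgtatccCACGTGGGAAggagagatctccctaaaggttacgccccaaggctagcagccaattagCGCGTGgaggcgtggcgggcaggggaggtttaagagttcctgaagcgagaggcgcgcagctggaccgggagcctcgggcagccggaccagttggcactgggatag
Nrarp (chr2:25180508-25180807, plus strand): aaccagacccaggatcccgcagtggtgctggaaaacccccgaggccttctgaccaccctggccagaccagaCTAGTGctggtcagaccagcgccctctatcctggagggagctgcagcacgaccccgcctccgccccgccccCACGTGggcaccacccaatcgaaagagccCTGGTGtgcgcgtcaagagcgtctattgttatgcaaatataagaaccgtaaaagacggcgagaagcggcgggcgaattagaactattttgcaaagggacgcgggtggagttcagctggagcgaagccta
Windows were found for 9 of the 10 genes (10 windows, with 2 for Rbpj). The E box was present in Lfng and Nrarp, and in 7.15% of all 32851 windows of that length. In Lfng the E box overlaps a longer Rbpj match, GTGGGAA, which 6.38% of all windows held. Of the 9 genes with a window, only Lfng held this longer match. The core alone was found in Lfng and Rbpj (25.6% of all windows), CACGCG in Notch2, Lfng and Rfng (9.27%), and the N box in 6 of the 9 genes, Notch1 with 3 matches among them (42.5%). A match is a run of letters and no proof of binding.

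None of the 10 genes was called between Hes1 cKO and control by edgeR's quasi-likelihood test at an adjusted p under 0.05, a rule that called 0.339% of the 15615 genes tested (0.32% as higher in Hes1 cKO and 0.0192% as lower). DESeq2's Wald test and limma-voom also called 0 of them. At an unadjusted p under 0.05 there was 1, Notch1, which was higher, against 5.95% of all tested genes (3.34% higher and 2.61% lower). The log2 fold change (Hes1 cKO over control) was above 0 for 7 of the 10 genes, as for 48.4% of all tested genes, and its median was 0.08 beside -0.0064 over all tested genes. The libraries of both groups overlapped for each of the 10 genes, while 7.01% of all tested genes had groups without overlap (3.71% with Hes1 cKO above control). In whole-kidney RNA, fewer cells of a type and less RNA per cell cannot be told apart.

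**Figure D1:**
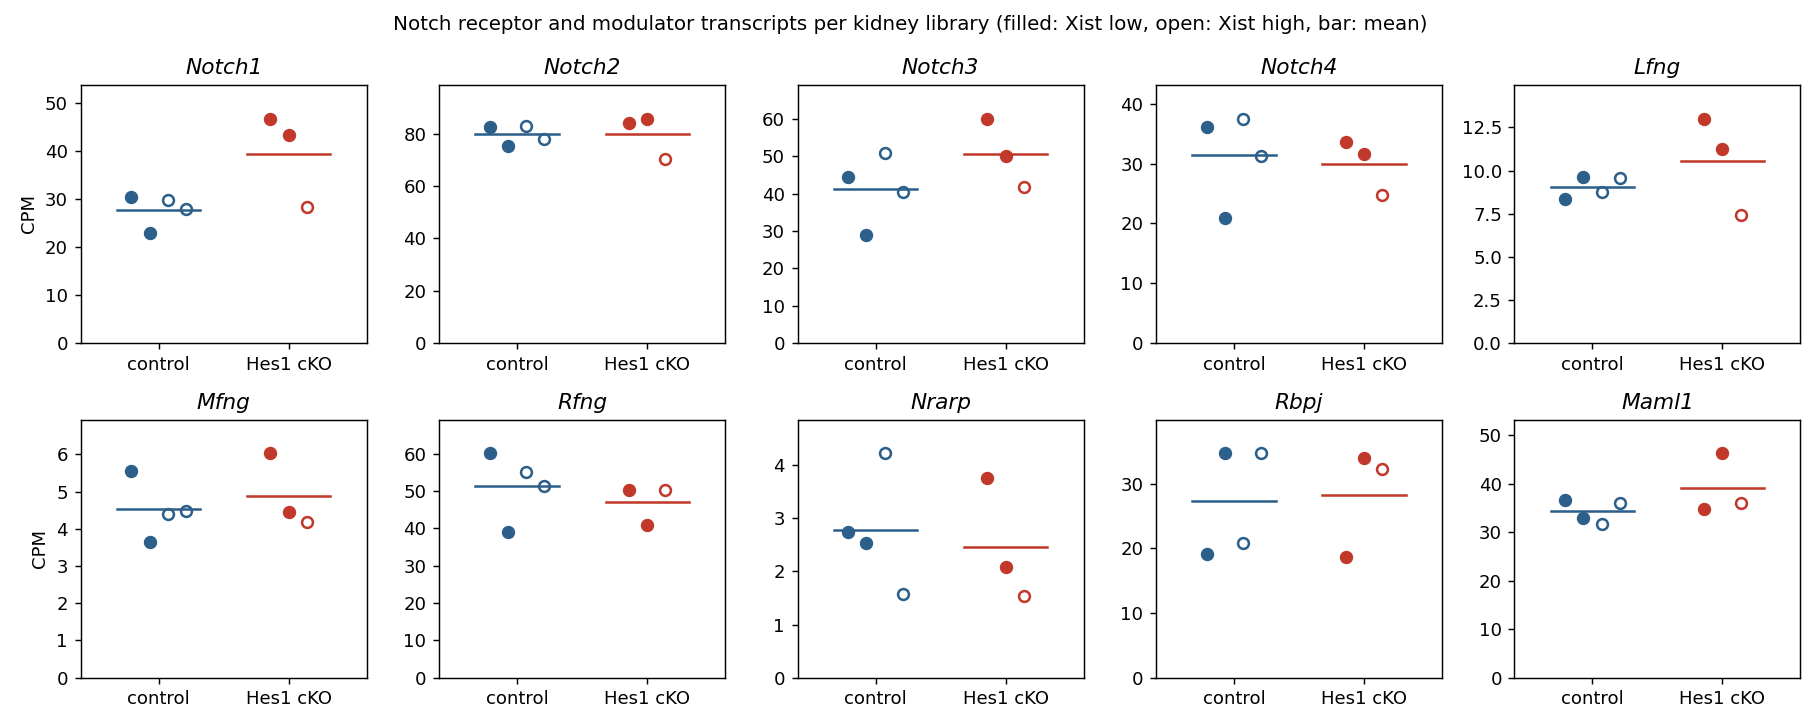
Level of each gene in CPM (vertical axis, from 0) for 4 control and 3 Hes1 cKO libraries. Each point is a library, filled where Xist was low and open where it was high, and bars are group means. Notch1 is high in the 2 filled Hes1 cKO libraries (46.7 and 43.4 CPM), and Rbpj splits into low and high libraries within both groups.

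Among the receptors, Notch1 (ENSMUSG00000026923, chr2:26457903-26516663 in GRCm38, minus strand) had the largest difference of the 10 genes. It was at 46.7, 43.4 and 28.2 CPM across Hes1 cKO 1 to 3 and at 30.4, 22.8, 29.8 and 27.8 CPM across control 1 to 4. Hes1 cKO 1 and 2 lay above every control, and Hes1 cKO 3 lay within the control range. The means were 39.4 ± 9.85 CPM (SD, n = 3) and 27.7 ± 3.44 CPM (SD, n = 4), and the log2 fold change was 0.51 (95% interval 0.12 to 0.90). It was not called (edgeR unadjusted p 0.0157, adjusted p 0.693), and the exact two-sided permutation test over the libraries gave p = 0.114. The difference was larger without Hes1 cKO 3 (log2 fold change 0.70, edgeR adjusted p 0.130) and smaller without Hes1 cKO 1 (0.37, 0.944).

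Hes1 cKO 3 differs from Hes1 cKO 1 and 2 in high Xist and high adrenal genes. With Xist as a covariate the log2 fold change of Notch1 was 0.46 (edgeR adjusted p 0.610), and with the adrenal level as a covariate 0.51 (0.648). The 4 libraries with the least adrenal RNA were Hes1 cKO 1 and 2 and control 3 and 4. In a fit to these alone Notch1 was called, with a log2 fold change of 0.65 (edgeR adjusted p 0.0379) among 220 calls. This fit was chosen after the data were seen and leaves out Hes1 cKO 3, where Notch1 was lowest in Hes1 cKO. The call is therefore no independent support for a difference. In these 4 libraries both Hes1 cKO ones were low and both controls high in Xist, so genotype and Xist cannot be told apart. Among the libraries low in Xist, Notch1 was at 46.7 and 43.4 CPM in Hes1 cKO against 30.4 and 22.8 CPM in control. Among those high in Xist it was at 28.2 CPM in Hes1 cKO against 29.8 and 27.8 CPM in control.

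Notch1 acts in many cell types, including endothelium. The summed level of 8 endothelial markers was 326 to 471 CPM in Hes1 cKO and 374 to 435 CPM in control, and 0 of the 8 were called by edgeR (1, Emcn, at an unadjusted p under 0.05, lower in Hes1 cKO). Among the Hes1 cKO libraries the endothelial sum, like Notch1, was lowest in Hes1 cKO 3 and highest in Hes1 cKO 1. Across groups the orders differed. Control 1 had a higher endothelial sum (435 CPM) than Hes1 cKO 2 (396 CPM) but less Notch1. The part of endothelium in the Notch1 difference was not tested. Transcripts on the opposite strand share exon sequence with Notch1 (Gm13568 and 0610009E02Rik, at most 0.0495 and 1.86 CPM), Notch3 (Gm17276, at most 2.78 CPM) and Maml1 (Gm26542, at most 0.713 CPM). No source used here states whether counting was by strand, so such reads cannot be told apart. Notch2 shares 541 bp, 5.02% of its exon length, with Gm42820 on the same strand, where no strand setting separates reads. The level of Gm42820 was not looked up.

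Notch2 (ENSMUSG00000027878, chr3:98013527-98150361, plus strand) was the most abundant receptor. It was at 84.1, 85.7 and 70.3 CPM across Hes1 cKO 1 to 3 and at 82.5, 75.1, 82.9 and 78.1 CPM across control 1 to 4. The range of control lay inside that of Hes1 cKO. The log2 fold change was 0.01 with a 95% interval from -0.20 to 0.21 (edgeR adjusted p 0.996), the narrowest interval of the 10 genes.

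Notch3 (ENSMUSG00000038146, chr17:32120820-32166852, minus strand) is the receptor of smooth muscle and pericytes. It was at 60.1, 50.1 and 41.8 CPM across Hes1 cKO 1 to 3 and at 44.4, 28.9, 50.8 and 40.4 CPM across control 1 to 4. Only Hes1 cKO 1 lay above the highest control, and control 2 and 4 lay below the lowest Hes1 cKO library. Its log2 fold change was 0.30 (95% interval -0.12 to 0.72, edgeR adjusted p 0.938). It was 0.16 without Hes1 cKO 1 or without control 2, and 0.42 without Hes1 cKO 3 or without control 3. Beside it, the summed level of 8 smooth muscle and pericyte markers was 405, 291 and 315 CPM across Hes1 cKO 1 to 3 and 308, 284, 332 and 299 CPM across control 1 to 4. Hes1 cKO 1 was highest and control 2 lowest for both, whereas Hes1 cKO 2 was next to lowest in these markers and not in Notch3. None of the 7 tested markers was called by edgeR (0 at an unadjusted p under 0.05), and their part in the Notch3 values was not tested.

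Notch4 (ENSMUSG00000015468, chr17:34564268-34588503, plus strand), a receptor found mainly in endothelium, was at 33.6, 31.5 and 24.7 CPM across Hes1 cKO 1 to 3. Across control 1 to 4 it was at 36.2, 20.9, 37.5 and 31.3 CPM, a range that enclosed all Hes1 cKO values. The log2 fold change was -0.07 (95% interval -0.51 to 0.37, edgeR adjusted p 0.992), and its sign changed when single libraries were left out. All 4 receptors were lowest in control 2 among the controls and lowest in Hes1 cKO 3 among the Hes1 cKO libraries. Both libraries were high in adrenal genes, as was control 1, where no receptor was lowest.

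The make-up of the receptor pool was compared as the share of each receptor in the sum of the 4, per kb of exon, which does not depend on library scaling. Notch1 made up 14.5%, 14.4% and 11.9% across Hes1 cKO 1 to 3 and 10.8%, 10.9%, 10.1% and 10.8% across control 1 to 4. Here all 3 Hes1 cKO libraries, Hes1 cKO 3 included, lay above all 4 controls. The means were 13.6% ± 1.50 (SD, n = 3) and 10.7% ± 0.367 (SD, n = 4), a difference of 2.94 percentage points. The exact permutation p was 0.0286, the smallest that 35 assignments of the libraries allow, and 0.200 after adjustment over the 7 shares tested. The share did not pass, but a share that alone reached the smallest p could not pass after this adjustment. The adjusted value therefore does not decide whether the Notch1 share differed.

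Notch3 made up 29.3% to 32.8% of the pool in Hes1 cKO and 24.3% to 30.3% in control (exact permutation p 0.0857). Notch2 made up 34.4% to 39.0% in Hes1 cKO and 37.1% to 47.3% in control (exact permutation p 0.286). Notch4 took nearly the same share in each Hes1 cKO library, 18.3% to 18.5%, and 17.6% to 22.7% in control, where control 2 was lowest (exact permutation p 0.143). After adjustment over the 7 shares, these permutation p-values were 0.300, 0.343 and 0.333.

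**Figure D2:**
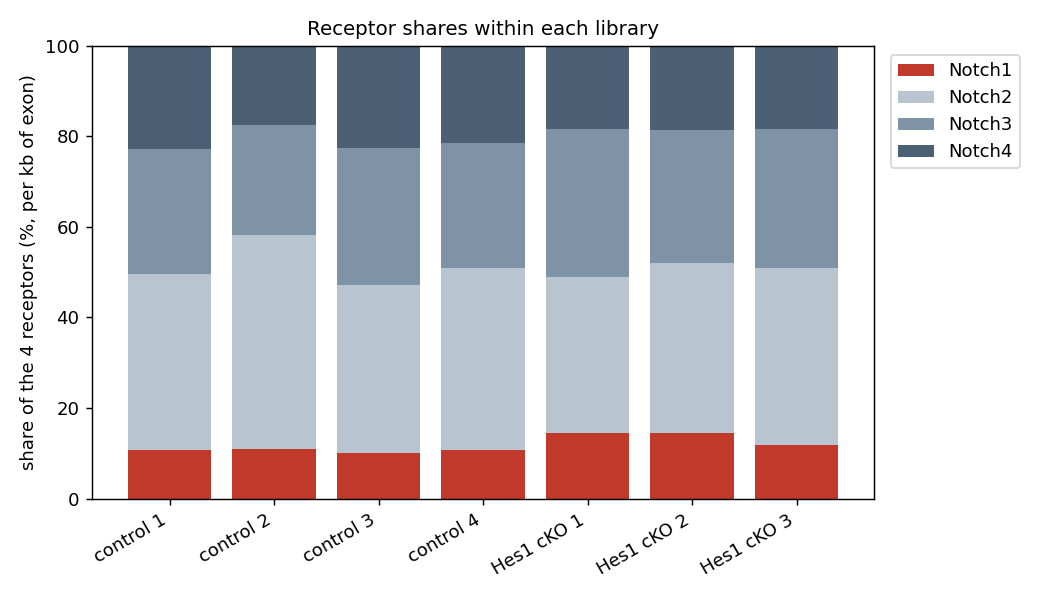
Share of each receptor in the summed level of Notch1 to Notch4, in percent per kb of exon, as a stacked bar for each of 7 libraries. The Notch1 segment at the base is 11.9% to 14.5% in Hes1 cKO and 10.1% to 10.9% in control.

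The fringe genes encode the glycosyltransferases that modify Notch receptors. Lfng (ENSMUSG00000029570, chr5:140607320-140615545, plus strand) was at 13.0, 11.2 and 7.41 CPM across Hes1 cKO 1 to 3 and at 8.37, 9.64, 8.73 and 9.55 CPM across control 1 to 4. As for Notch1, Hes1 cKO 1 and 2 lay above every control, but Hes1 cKO 3 was the lowest of all 7 libraries. The log2 fold change was 0.22 (95% interval -0.20 to 0.63, edgeR adjusted p 0.959). Without Hes1 cKO 3 it was 0.42 and without Hes1 cKO 1 0.04, so its size rests on single libraries.

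Mfng (ENSMUSG00000018169, chr15:78755882-78773475, minus strand) had 69 to 114 counts in a library. It was at 6.03, 4.45 and 4.18 CPM across Hes1 cKO 1 to 3 and at 5.56, 3.65, 4.39 and 4.48 CPM across control 1 to 4, with overlapping ranges. Its log2 fold change was 0.11 (95% interval -0.36 to 0.58, edgeR adjusted p 0.987). Rfng (ENSMUSG00000025158, chr11:120780746-120784207, minus strand) was at 50.3, 41.0 and 50.3 CPM across Hes1 cKO 1 to 3. Across control 1 to 4 it was at 60.1, 39.0, 55.0 and 51.4 CPM, a range that enclosed the Hes1 cKO values. Its log2 fold change was -0.12 (95% interval -0.45 to 0.20, edgeR adjusted p 0.974). This value was -0.031 when Hes1 cKO 2 was dropped, -0.039 when control 1 was dropped and -0.23 when control 2 was dropped.

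Per kb of exon, Rfng made up 73.1% to 82.0% of the fringe pool in Hes1 cKO and 75.3% to 82.0% in control. Lfng made up 12.0% to 19.9% and 11.4% to 18.5%, and Mfng 5.97% to 7.72% and 5.70% to 6.65%. Exact permutation tests of the 3 fringe shares gave p = 0.314 for Rfng, 0.343 for Lfng and 0.200 for Mfng.

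Nrarp, Rbpj and Maml1 act inside the cell. Nrarp (ENSMUSG00000078202, chr2:25180758-25183339, plus strand) is both a target of Notch and a brake on it. It was at 3.76, 2.08 and 1.53 CPM across Hes1 cKO 1 to 3 and at 2.75, 2.54, 4.23 and 1.58 CPM across control 1 to 4. Both groups held low and high libraries. With 26 to 77 counts in a library its log2 fold change of -0.17 had the widest 95% interval of the 10 genes, from -1.04 to 0.70 (edgeR adjusted p 0.990). An antisense gene, Gm38287, covers 79.4% of its exon length in GENCODE M21 and had no row of its own in the counts.

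Maml1 (ENSMUSG00000050567, chr11:50255634-50292311, minus strand) encodes the co-activator that joins Rbpj and the cut receptor. It was at 34.9, 46.3 and 36.0 CPM across Hes1 cKO 1 to 3 and at 36.7, 32.9, 31.7 and 36.0 CPM across control 1 to 4. Hes1 cKO 2 alone stood above the controls. For Maml1 the log2 fold change was 0.19 (95% interval -0.08 to 0.45, edgeR adjusted p 0.938) and 0.05 without Hes1 cKO 2.

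Rbpj (ENSMUSG00000039191, chr5:53466152-53657362, plus strand), the DNA-binding partner of every Notch receptor, did not differ in mean but split within both groups. It was at 18.7, 34.0 and 32.2 CPM across Hes1 cKO 1 to 3 and at 19.2, 34.7, 20.9 and 34.7 CPM across control 1 to 4. The 3 libraries Hes1 cKO 1, control 1 and control 3, lay at 18.7 to 20.9 CPM, and the other 4 at 32.2 to 34.7 CPM, with no value between. The step from the highest of the low libraries to the lowest of the high ones was 1.55-fold, from counts of 334 to 688 in a library. The group means were 28.3 ± 8.39 CPM (SD, n = 3) and 27.3 ± 8.50 CPM (SD, n = 4), and the log2 fold change was 0.05 (95% interval -0.55 to 0.65, edgeR adjusted p 0.996). The low and the high libraries each held both genotypes, libraries low and high in Xist, and libraries low and high in adrenal genes.

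Rbpj has processed copies elsewhere in the genome, so reads of copy and parent may have been exchanged by the counting. The copy on chromosome 6, listed as Rbpsuh-rs3 (ENSMUSG00000079575, chr6:46529354-46530794), was at 0.529, 1.38 and 0.823 CPM across Hes1 cKO 1 to 3 and at 0.229, 1.32, 0.220 and 2.29 CPM across control 1 to 4. Its 3 lowest values fell in the same libraries as those of Rbpj. Its counts were 1.05% to 6.61% of those of Rbpj. The copy on chromosome 4, Rbpsuh-ps1, was at most at 0.106 CPM. Of the 15 tested genes within 1 Mb of Rbpj none came closer to its pattern than a root mean square difference of 0.31 in centred log2(CPM + 1) over the 7 libraries.

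Over all tested genes, the patterns most like that of Rbpj were those of Cox18, a mitochondrial assembly factor (difference 0.075), and Maob, monoamine oxidase B (0.119). Cox18 was at 8.83, 15.1 and 16.4 CPM across Hes1 cKO 1 to 3 and at 9.41, 16.6, 9.82 and 18.7 CPM across control 1 to 4. Rbpj was taken for this search after its values had been seen.

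**Figure D3:**
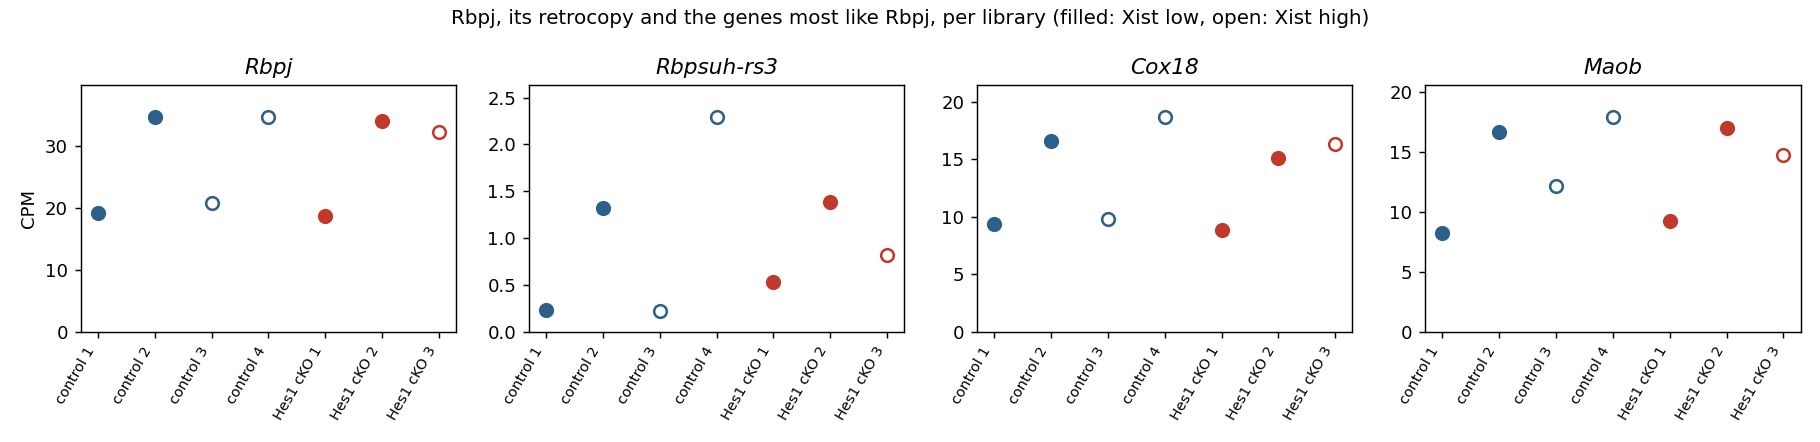
Level in CPM (vertical axes, from 0) of Rbpj, its copy Rbpsuh-rs3, Cox18 and Maob in each of 7 libraries (blue control, red Hes1 cKO, open where Xist was high). Hes1 cKO 1, control 1 and control 3 hold the 3 lowest values in each panel.

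The same search was made for the 3 genes with the largest absolute log2 fold change, Notch1, Notch3 and Lfng. Closest to Notch1 were Zfpm1, a cofactor of GATA factors (difference 0.082), the ligand gene Wnt10a (0.103) and Caskin2 (0.126). Zfpm1 was at 22.4, 21.1 and 15.1 CPM across Hes1 cKO 1 to 3 and at 16.0, 13.0, 15.3 and 14.1 CPM across control 1 to 4. Closest to Notch3 were Mxd3 (0.062), the kinesin gene Kifc1 (0.076) and Kirrel3 (0.085), each at 2.80 CPM or less in every library. Closest to Lfng were Zcchc24 (0.044), Coro6 (0.054) and Stc1, the hormone stanniocalcin (0.073). None of these 9 genes was called between the groups (edgeR adjusted p 0.693 to 0.988).

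Levels of different genes can be ordered only per kb of exon. Length here is the union of all annotated exons of a gene, so the order depends on the annotation. In control, Rfng was highest at 20.6 ± 3.61 CPM per kb (SD, n = 4), followed by Notch2 (7.39 ± 0.346), Maml1 (6.21 ± 0.433), Notch3 (5.09 ± 1.14), Notch4 (3.90 ± 0.938) and Lfng (3.62 ± 0.248). Rbpj (2.14 ± 0.666), Notch1 (1.95 ± 0.242), Mfng (1.59 ± 0.277) and Nrarp (1.08 ± 0.423) were lowest. Rfng and Notch2, Notch2 and Maml1, and Lfng and Rbpj were separated without overlap of the control libraries. The ranges of all other neighbours in this order overlapped. In Hes1 cKO the order was the same except that Lfng and Notch4, and Notch1 and Rbpj, changed places, and the libraries of both pairs overlapped.

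**Figure D4:**
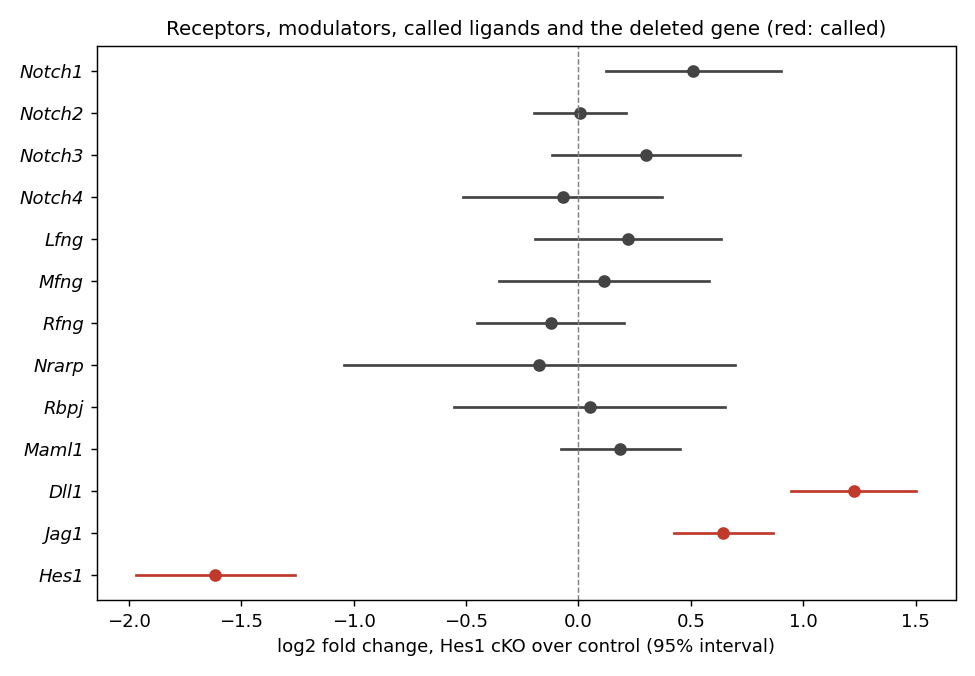
Log2 fold change of Hes1 cKO over control with its 95% interval for the 10 genes, the called ligands Dll1 and Jag1, and Hes1. Red marks genes called by edgeR. The interval of Notch1 (0.12 to 0.90) is the only one of the 10 that does not cross 0, before adjustment.

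The rest of the pathway was read from 7 lists with 55 genes, of which 53 were tested. Of these, 2 were called higher, Dll1 and Jag1, and 1 lower, Hes1, beside 0.32% and 0.0192% of all tested genes. Without Hes1, 31 of 52 had a log2 fold change above 0 (48.4% of all tested genes), with a median of 0.04. Of the 52, 7 passed an unadjusted p under 0.05 in edgeR (all higher, beside 3.34% of all tested genes). The lists were chosen with earlier results of these data known, so these counts are no test of an excess in the pathway. Of the ligands, which bind the receptors from a neighbouring cell, Dll1 was at 29.4, 23.1 and 26.8 CPM across Hes1 cKO 1 to 3 and at 11.8, 9.58, 11.8 and 12.1 CPM across control 1 to 4. Its log2 fold change was 1.22 (95% interval 0.94 to 1.50, edgeR adjusted p 0.00357). Jag1 rose by 0.64 on the log2 scale (95% interval 0.42 to 0.87, edgeR adjusted p 0.0332). With 1 library left out its log2 fold change was 0.59 to 0.72, and the call was lost in each case except without Hes1 cKO 3 (edgeR adjusted p up to 0.201).

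Of the targets other than Hes1, 0 of 3 tested were called by edgeR. Heyl, a repressor related to Hes1, was at 18.1, 12.3 and 9.94 CPM across Hes1 cKO 1 to 3 and at 9.29, 9.96, 10.4 and 6.71 CPM across control 1 to 4 (log2 fold change 0.56, edgeR unadjusted p 0.0296, adjusted p 0.744). As for Notch1, Hes1 cKO 1 was highest and Hes1 cKO 3 lay within the control range.

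None of the 10 genes of receptor cleavage, the proteases and gamma-secretase subunits that cut Notch, was called (0 at an unadjusted p under 0.05), and their log2 fold changes spanned only -0.09 to 0.13. Furin, the most abundant, was at 524 ± 26.5 CPM (SD, n = 3) and 478 ± 51.9 CPM (SD, n = 4). The 3 enzymes of receptor O-glycosylation were not called either, with log2 fold changes from -0.14 (Eogt) to -0.04 (Pofut1).

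The 15 genes listed under receptor trafficking and turnover include some that act on the ligands, such as Neurl1b. Among the 15, edgeR called 0, with 2 at an unadjusted p under 0.05. These were Numbl, an endocytic Notch inhibitor (log2 fold change 0.44, edgeR adjusted p 0.790), and Neurl1b, a ubiquitin ligase for Notch ligands (0.27, 0.738). Nedd4, the most abundant, was at 458 ± 26.6 CPM (SD, n = 3) and 470 ± 31.4 CPM (SD, n = 4).

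Of the nuclear partners, 0 of 7 co-activators and 0 of 10 co-repressors of Rbpj were called by edgeR, with 0 and 2 at an unadjusted p under 0.05. Among the latter was Spen, a large co-repressor that binds Rbpj, at 137, 137 and 102 CPM across Hes1 cKO 1 to 3 and at 113, 101, 99.1 and 102 CPM across control 1 to 4. Hes1 cKO 1 and 2 lay above every control and Hes1 cKO 3 within their range. Its log2 fold change was 0.27 (edgeR adjusted p 0.806). Among the co-activators Maml3 had the largest log2 fold change (0.24, edgeR adjusted p 0.844). Ep300, the highest of them in CPM but not per kb of exon, had a log2 fold change of 0.16 (edgeR adjusted p 0.940).

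**Figure D5:**
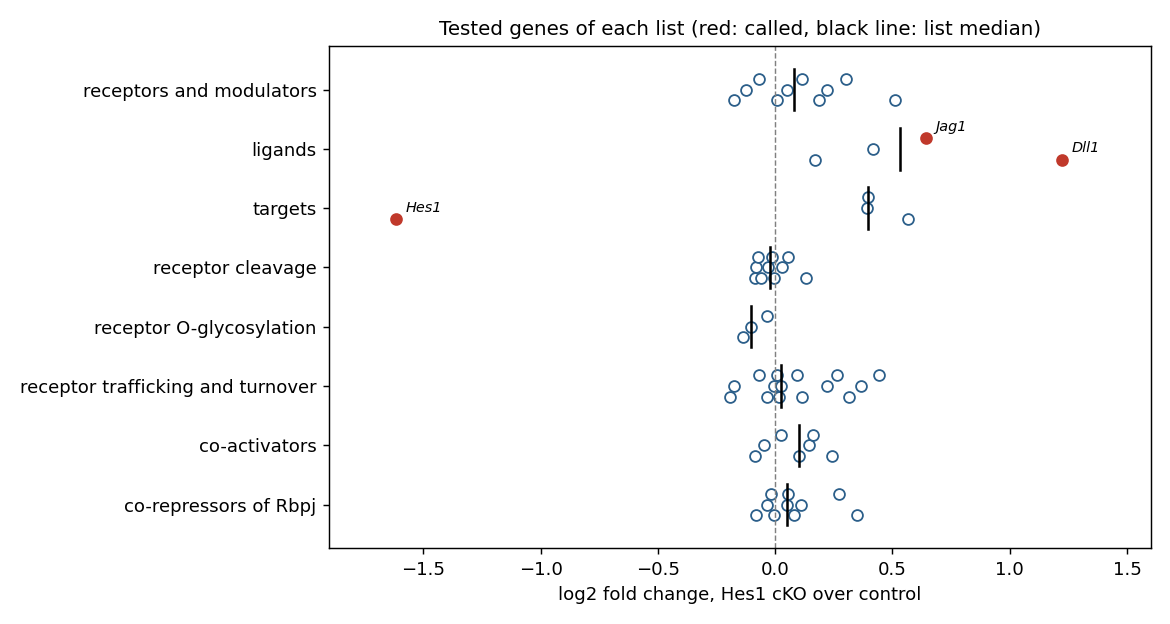
Log2 fold change of Hes1 cKO over control for each tested gene of the receptors and modulators and of the 7 other pathway lists. Each circle is a gene, black lines are list medians and red marks genes called by edgeR (Dll1, Jag1 and Hes1).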

How the data were processed

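The authors deposited tables of whole-number read counts per gene with no normalization. Per the submitters' processing notes, FastQC, STAR and DESeq2 and the builds mm10 and GRCm38 were used, with no versions. No source used here states the counting program, its strand setting or its annotation. Libraries were 150 bp pairs, per the labels. The titles name 7 Hes1 cKO and 9 control samples, while the series text gives the sizes the other way round. Column names of 1 table show the genotype of 7 libraries but not which titled sample each is. The 9 columns of the other table show no genotype and were not used.

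Genes were filtered with filterByExpr (minimum count 10), scaled by TMM and tested with edgeR 4.0.16 (R 4.3.3) by the quasi-likelihood test without covariates. Benjamini-Hochberg adjustment of the p-values ran over 15615 genes, and a gene was called under 0.05. The script was tested on simulated data. Standard errors and 95% intervals were derived from the F statistic. CPM use TMM library sizes. Exact two-sided permutation tests enumerated all 35 assignments of libraries to groups, on log2(CPM + 1) for a gene and on the percentage for a share. Exon lengths are unions of all annotated exons of a gene, not lengths of expressed transcripts. Lengths and coordinates are from GENCODE M21 (GRCm38), where 99.7% of the identifiers were found.

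Genes named are Hes1, the 10 genes of the set, called pathway genes, and each pathway list's most changed and, by CPM, most abundant gene. Also named are called and abundant markers, and the genes most like the 3 most changed of the set. Not every such marker is printed, and 1 pathway result is not reported here. The set and the lists were chosen with earlier results of these data known. Alternatives were DESeq2 1.42.0, limma-voom 3.58.1, other scalings and filters, an Xist covariate and leaving out each library.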

Additional observations from a re-analysis of the deposited data

Results flagged for a closer look

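Among the 4 controls, 20 sets of values (Hes1, the 10 genes of the set, Dll1, Jag1 and 7 shares) were searched for a library far from the rest, and 2 were found, where chance alone gives about 1 in 20. The share of Notch1 among the receptors was low in control 3, at 10.1% against 10.8%, 10.9% and 10.8% in control 1, 2 and 4. The gap took 0.899 of the whole range. It lies away from the Hes1 cKO values (11.9% to 14.5%), and without control 3 the difference of the means was 2.75 in place of 2.94 percentage points. For Dll1, control 2 stood apart with 9.58 CPM, while control 1, 3 and 4 held 11.8, 11.8 and 12.1 CPM, a gap of 0.893 of the range. With 3 libraries, Hes1 cKO is too small for this search.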

How the results depend on the processing

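No paired analysis was possible because the columns carry no replicate number that the labels hold, and for the same reason sex from the labels could not be used as a covariate. The adrenal covariate, the fit to 4 libraries with low adrenal genes and the bias-adjusted deviances were chosen after seeing the data. The fall of Hes1 passed in each of 17 alternatives (log2 fold change -1.80 to -1.51). The count of genes called, 53, was 102 without a low-count filter, 127 by DESeq2's Wald test, 220 in the 4 libraries with low adrenal genes, and 25 (without Hes1 cKO 2) to 47 (without control 2) when 1 library was left out, with 27 without Hes1 cKO 1. Of the receptors and modulators 0 were called in 16 of 17 alternatives and 1, Notch1 (log2 fold change 0.65), in the 4 libraries with low adrenal genes. Notch1, Notch3, Lfng, Rfng and Maml1 kept their sign in all 17. The sign of Notch2 changed with the Xist covariate (-0.013), and those of Nrarp (0.0052) and Rbpj (-0.072) in the 4 libraries with low adrenal genes. Leaving out 1 library gave log2 fold changes of -0.046 to 0.091 for Notch2, -0.22 to 0.049 for Notch4, -0.069 to 0.23 for Mfng, -0.62 to 0.10 for Nrarp and -0.10 to 0.27 for Rbpj, which span 0. The cause was not tested. All 7 shares kept their direction in 9 alternatives each, with 2.50 to 4.09 percentage points for Notch1. With 1 library left out or only 4 used, their permutation tests cannot pass 0.05 even before adjustment. The lowest counts were those of Nrarp (26 to 77 in a library) and Mfng (69 to 114).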
